A study of Mus musculus with 2 samples.

Results

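The regions described here lie deep inside very long genes. They are ATAC-seq peaks whose summit lay inside a protein-coding gene of at least 200000 bp and more than 1000 bp from both ends of every annotated gene, on chromosomes 1 to 19 and X. The cKO list held 7443 such peaks among 61210 in all, and the control list 10393 among 77529. ATAC-seq uses a transposase that cuts accessible DNA, and a peak is a place where cuts pile up. The 2 libraries were made from kidney cells of the Wnt4 lineage, sorted for tdTomato from E18.5 mouse embryos, with 50000 cells per reaction. One was labelled Brg1cKO/cKO, meaning that Brg1 (Smarca4), an ATPase of the BAF chromatin remodelling complex, was conditionally deleted, and the other WT control. The sources used here do not give the driver of the deletion or the number of animals pooled.

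Introns of long genes hold many enhancers, short stretches of DNA that bind transcription factors and act on promoters at a distance, sometimes on those of other genes. BAF complexes slide and evict nucleosomes and are known to act at many enhancers. Among the longest mammalian genes are many that encode adhesion, synaptic and axon guidance proteins, and in the kidney some long genes, such as Ptpro and Magi2, serve the podocyte, the filtering cell of the glomerulus.

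A few of these regions hold an annotated internal start site, where a shorter transcript of the long gene begins, and for these RefSeq gives the sequence (GRCm38.p6, 250 bases before to 50 after the start, on the transcribed strand). The 3 windows below lie wholly inside a control peak of the set and were chosen for strength. The choice was made among control peaks that hold a whole window, on the chromosomes that were read for windows. The 3 windows belong to the most significant such peak found in both libraries and the 2 most significant called in the control alone. Their strengths thus differ. The 3 windows do not stand for all such regions, since 200 of the 217 control peaks with a summit within 500 bp of an internal start were found in the cKO list. Capitals mark matches, on either strand, to TGANTCA (the AP-1 site), GGAATG (TEAD), CCAAT and GGGCGG (an Sp1 site).
Hdac4, chr1:92180292-92180591, minus strand, in a peak found in both libraries: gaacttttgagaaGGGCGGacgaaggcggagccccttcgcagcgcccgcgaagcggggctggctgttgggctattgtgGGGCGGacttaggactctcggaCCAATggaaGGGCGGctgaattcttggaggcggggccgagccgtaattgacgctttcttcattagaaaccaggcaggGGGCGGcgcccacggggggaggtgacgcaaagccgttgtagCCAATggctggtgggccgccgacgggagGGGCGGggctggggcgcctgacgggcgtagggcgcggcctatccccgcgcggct
Mical3, chr6:121081578-121081877, minus strand, in a peak of the control library alone: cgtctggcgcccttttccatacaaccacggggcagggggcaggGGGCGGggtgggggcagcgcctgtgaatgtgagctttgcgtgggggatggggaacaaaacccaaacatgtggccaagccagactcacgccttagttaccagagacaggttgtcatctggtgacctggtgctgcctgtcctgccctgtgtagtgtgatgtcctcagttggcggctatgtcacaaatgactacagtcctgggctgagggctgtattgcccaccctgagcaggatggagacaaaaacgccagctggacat
Tacc2, chr7:130577188-130577487, plus strand, in a peak of the control library alone: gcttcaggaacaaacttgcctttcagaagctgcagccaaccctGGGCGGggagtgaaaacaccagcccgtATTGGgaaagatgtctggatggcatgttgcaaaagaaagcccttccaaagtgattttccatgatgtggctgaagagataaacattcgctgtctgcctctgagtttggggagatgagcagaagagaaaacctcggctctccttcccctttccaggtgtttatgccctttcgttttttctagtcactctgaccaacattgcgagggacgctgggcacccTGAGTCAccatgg
The Hdac4 window (a histone deacetylase gene) held 32 CG dinucleotides and 68.0% G and C, against medians of 7 and 52.7% over the 32851 RefSeq windows, and matched GGGCGG 5 times and CCAAT 2 times. The windows of Mical3, which encodes an actin-oxidising enzyme, and of Tacc2, a centrosomal protein gene, held 9 and 7 CG dinucleotides and matched GGGCGG once each. Tacc2 also matched TGANTCA and CCAAT once each. These motifs occur in 35.7% (GGGCGG), 37.4% (CCAAT), 14.7% (GGAATG) and 7.81% (TGANTCA) of all windows, so a match describes the letters and no more.

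With 1 library per genotype there is no replicate spread, and the genotypes were compared without a test. All intervals are 95% intervals and cover counting error only. Those of shares are exact (Clopper-Pearson), and those of differences between sets of peaks rest on the normal approximation. For the gene lists, the interval of the difference from expectation is the exact interval of the share less the expected share. It leaves out the counting error of the expected share. The lists carry no read counts, the depth is unknown, and a peak missing from a list may have fallen short of the caller's threshold. In sorted bulk cells, fewer cells with a site open and a site less open in each cell cannot be told apart. Of 15 nephron lineage markers 11 had a peak within 1000 bp of a gene end in the cKO and 12 in the control list, and Cdh6, Umod and Slc12a1 had none in either. All 4 interstitial, 3 endothelial and 3 neural markers had one in both lists, 1 of 2 erythroid markers in both, and of 3 immune markers 0 in the cKO and 2 in the control list. The part that such cells play in the results below was not tested.

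The regions were numerous but weak, and they were sparsest in the longest genes. They made up 16.8% of distal cKO peaks and 17.6% of distal control peaks. The 990 long genes cover 420 Mb, over which they gave 17.7 distal cKO and 24.8 distal control peaks per Mb. Genes under 50000 bp gave 28.5 and 37.2, and those of 200 to 400 kb 25.5 and 36.1. Genes of 400 to 800 kb gave 16.6 and 23.1, and those of 800 kb and over 6.99 and 9.08. These densities divide by the whole gene span, including the 1000 bp at gene ends where no distal peak can lie. This lowers the values of short genes most. Only 70 cKO and 103 control peaks of the set fell in the strongest of 10 equal classes of their list by the caller's -log10 p (0.940% and 0.991%), whereas 5.06% and 5.26% of distal peaks inside short genes did. Their median width was 768 bp in the cKO and 738 bp in the control list, against 899 and 840 bp in short genes. The 99 long genes with most gene-peak pairs, 10% of all, were taken in each list separately. They held 34.7% of the cKO and 34.5% of the control pairs.

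The first comparison asked how many of these regions were called in both libraries. A peak counted as found when it overlapped a peak of the other list by at least 1 bp. In the cKO list 6781 of 7443 were found in the control (91.1%, 90.4 to 91.7%), and in the control list 6775 of 10393 were found in the cKO (65.2%, 64.3 to 66.1%). The lists differ in length, 61210 cKO against 77529 control peaks, and with the control list cut to its strongest peaks, as many as the cKO list has, 76.4% of cKO and 76.1% of control regions were found. With the full lists, 662 cKO and 3618 control regions were unmatched. Over all peaks of chromosomes 1 to 19 and X, 5.90% of cKO and 25.9% of control peaks were unmatched, and over all distal peaks 7.50% and 31.0%. Both sets were thus unmatched somewhat more often than distal peaks as a whole. In short genes the shares found were 96.0% of 7037 cKO peaks and 73.3% of 9188 control peaks.

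Since weak peaks are matched less often everywhere, the long genes were set against the short ones within these 10 classes of -log10 p, each made within its own list, with class 1 the weakest. The expected share is that of short-gene distal peaks in the same classes. In the cKO list the regions in long genes were found 3.51 percentage points less often than expected (91.1% against 94.6%, difference -3.51, -4.36 to -2.66), with a Mantel-Haenszel odds ratio of 0.550. In the control list the difference was -0.24 points (65.2% against 65.4%, -1.48 to 1.009), with an odds ratio of 0.977. The control value had no stable direction, being 2.83 points (1.22 to 4.45) with distal taken as more than 5 kb, 2.61 points (0.71 to 4.51) with long genes from 500 kb, and between -4.06 and 4.04 points over all alternatives. The cKO difference lay mainly in the weakest peaks. In classes 1, 2 and 3, 74.3%, 79.1% and 88.8% of long-gene peaks were found, against 83.3%, 88.7% and 93.0% of short-gene peaks, and from class 7 up all were found in both. Requiring an overlap of 50% of both peaks reduced the cKO difference to -1.09 points, with an interval from -2.28 to 0.10.

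**Figure D1:**
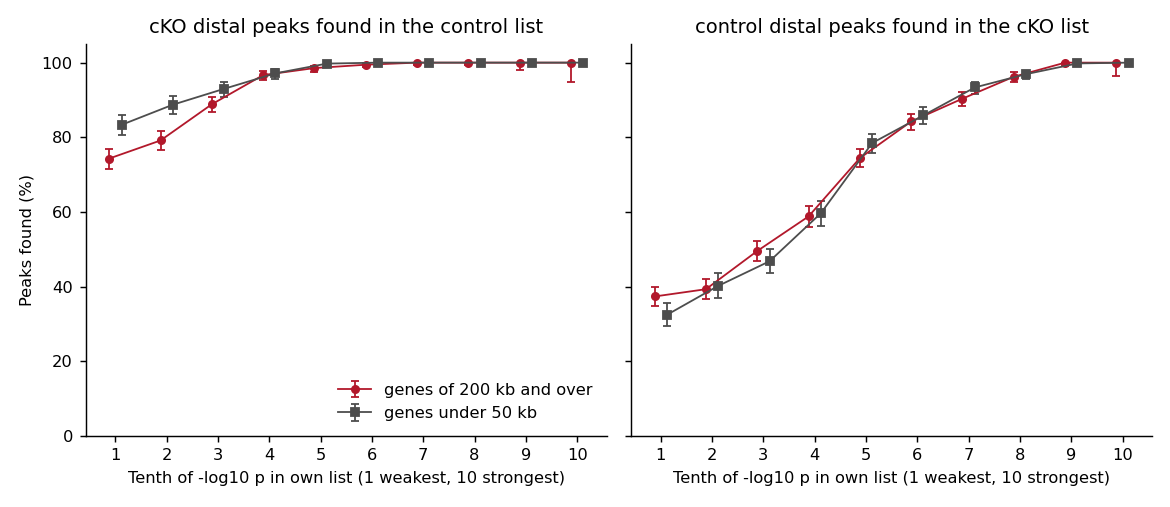
Share of distal peaks found in the other list (%) by class of -log10 p (1 weakest, 10 strongest), for genes of 200 kb and over (circles) and under 50 kb (squares), in the cKO list (left) and the control list (right), with exact 95% binomial intervals. In the cKO list the long-gene peaks lie lower in the 3 weakest classes (74.3%, 79.1% and 88.8%), while in the control list the 2 curves cross.

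Gene length ordered the cKO values. Against short genes at equal strength, cKO peaks differed by 0.52 points (-0.25 to 1.28) in genes of 50 to 100 kb and by -0.45 points (-1.26 to 0.35) in genes of 100 to 200 kb. In genes of 200 to 400 kb the difference was -2.27 points (-3.21 to -1.33), in those of 400 to 800 kb -4.02 points (-5.31 to -2.74), and in the 98 genes of 800 kb and over -9.04 points (-11.3 to -6.75), where 672 of 786 cKO peaks were found. Leaving out Lrmda, Macrod2, Adamtsl1, Erc2 and Asic2, the 5 of those 98 genes with most unmatched cKO peaks, moved the last value to -7.37 points, and requiring 50% overlap of both peaks moved it to -3.35 points (-5.95 to -0.75). The control list ran the other way, with -4.08 and -4.03 points in the 2 classes below 200 kb, and -0.91, 0.53 and 1.59 points in the 3 classes above it, the last 3 with intervals that include 0. Distal peaks outside protein-coding genes differed from short genes by -4.94 points in the cKO and 3.46 points in the control list, so the cKO deficit was not particular to long genes. Set against those outside peaks, the long genes were 2.14 points higher in the cKO list (1.39 to 2.88), while genes of 800 kb and over were still 3.33 points below (-5.58 to -1.07).

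**Figure D2:**
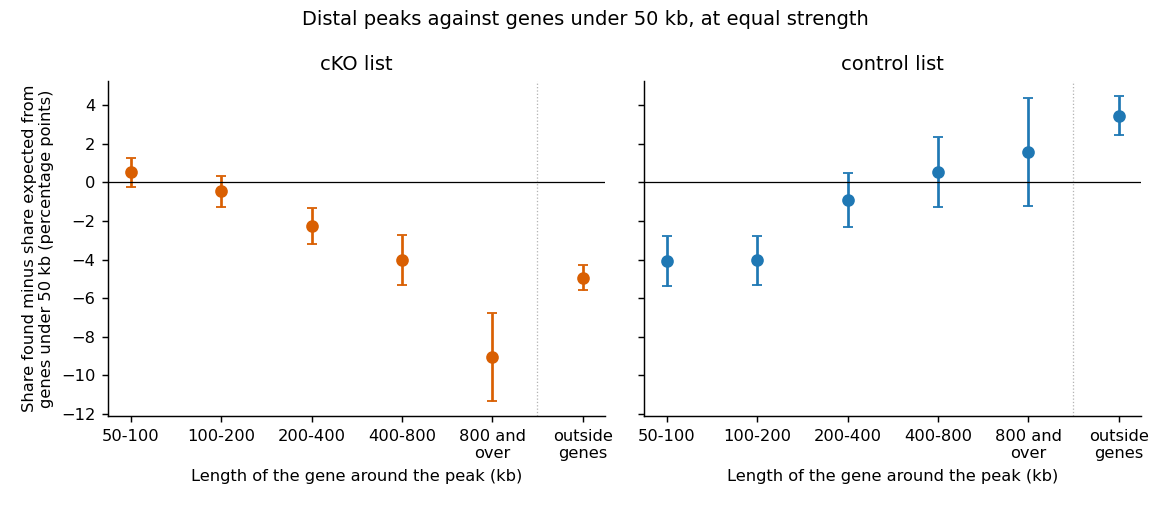
Share found minus the share expected from genes under 50 kb at equal strength (percentage points, points with 95% intervals), by length of the gene around the peak in kb and for distal peaks outside protein-coding genes, in the cKO list (left) and the control list (right). The cKO values step down to -9.04 in genes of 800 kb and over (-3.35 when 50% overlap is required), and the control values lie near -4 below 200 kb and near 0 above it.

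The balance of unmatched peaks differed among the gene length classes as well. For every 100 unmatched control peaks there were 11.4 unmatched cKO peaks in short genes and 18.3 in long genes. The ratio was lower than in short genes at 50 to 100 kb (8.06) and 100 to 200 kb (10.2). It was 15.2 at 200 to 400 kb, 19.9 at 400 to 800 kb and 32.9 at 800 kb and over. Among distal peaks outside protein-coding genes it was 27.3, above that of long genes. Of the 662 unmatched cKO peaks, 612 lay in the 3 weakest classes (92.4%), and 0 in the 3 strongest. Of the 3618 unmatched control peaks 2440 lay in the 3 weakest classes (67.4%), and 32 in the 3 strongest. Short genes leaned the same way, with 131, 77 and 49 of 279 unmatched cKO peaks in classes 1, 2 and 3. Of their 2452 unmatched control peaks 615, 530 and 495 lay there, so this lean was not particular to long genes. Unmatched peaks in long genes were narrower, with a median of 572.5 bp against 797 bp for matched ones in the cKO list, and 588 against 854 bp in the control list. Gene by gene, 652 long genes had more unmatched control than cKO peaks, 72 had more unmatched cKO than control peaks, 66 had equal numbers above 0 and 200 had neither. These ratios and gene counts were taken from the full lists of unequal length and were not recomputed at equal length. Lists of equal length tend to give nearly equal shares in both directions, so the shares given above do not show where this imbalance comes from. That was not tested.

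The gene's own ends were considered next. A peak within 1000 bp of a gene end was present in both lists at 783 of the 990 long genes, in the control list alone at 20, in the cKO list alone at 6 and in neither at 181. At equal strength, cKO peaks inside genes open at an end in both lists differed from short genes by -3.54 points and those inside genes open at neither end by -3.63 points (-5.41 to -1.85). The control values were -0.23 and -0.06 points (-2.50 to 2.39), so within each list the values differed by less than their intervals. Robo2, which encodes a Slit receptor, and Cubn, the endocytic receptor gene of the proximal tubule, were among the 20 with a gene-end peak in the control list alone, and 14 of 16 distal cKO peaks inside Robo2 and all 7 inside Cubn were found in the control list. Both genes were named after their values were seen.

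The genes with most regions were the next subject. Gse1, which encodes a partner of histone deacetylase complexes (mm10 chromosome 8, 120228501 to 120581383), was the richest, with 67 distal cKO and 76 distal control peaks, or 18.99 and 21.5 per 100 kb. Of these, 62 cKO and 70 control peaks were found in the other list, where 63.5 and 55.2 were expected. The forkhead factor gene Foxp1 had 38 cKO peaks, 37 of them found, and 66 control peaks, 41 of them found. Msi2, an RNA-binding protein gene, had 46 and 61, with 44 and 40 found. The transcription regulator genes Camta1 and Zfhx3 had 43 of 60 and 35 of 57 control peaks found, close to the 46.0 and 35.9 expected. Wwox, which in human spans a fragile site, had 41 cKO and 60 control peaks, 37 and 39 of them found.
Arhgap26 had 41 cKO and 54 control peaks with 39 found in each, and the neuron navigator gene Nav2 39 and 54 with 33 found in each. The other 4 lay on both sides of expectation. Maml3, a Notch coactivator gene, had 27 of 51 control peaks found (36.4 expected) and the Arf GTPase-activating protein gene Agap1 26 of 49 (32.9 expected), while all 29 and all 26 of their cKO peaks were found. Rad51b, a recombinational repair gene, had 41 of 49 found (32.7 expected) and Lrmda 39 of 52 (37.1 expected).

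Long genes with at least 10 distal control peaks, 391 in number, were ranked by share found minus share expected. The ranking describes these 2 libraries, its extremes were selected as such, and no gene was tested. The median gene stood at -0.30 points, with 198 of the 391 below 0.

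The 8 lowest genes had between 10 and 44 control peaks. Ptpro, the receptor phosphatase of the podocyte surface (chromosome 6, 137252299 to 137464634), had 3 cKO peaks, all found, and 11 control peaks, 3 of them found where 7.3 were expected (-38.7 points). Pard3b, a gene of the Par3 polarity family (chromosome 1, 61638667 to 62642284), had 5 cKO peaks with 3 found and 17 control peaks with 3 found (-36.5 points). Plxna4, a semaphorin receptor gene (chromosome 6, 32144543 to 32588192), had 4 cKO peaks, all found, and 10 control peaks with 4 found (-35.2 points). In each of these 3 genes the control list was longer than the cKO list, and most control peaks had no counterpart.
Srgap1, whose protein binds Robo receptors (chromosome 10, 121780991 to 122047911), had the most peaks of the 8 genes. It had 13 cKO peaks, 12 of them found, and 44 control peaks, of which 12 were found and 26.8 expected (-33.7 points). The longest run of unmatched control peaks held 8 neighbours between 94.1 and 141 kb from the 5′ end. Nos1ap, an adaptor gene in which human variants cause nephrotic syndrome (chromosome 1, 170315467 to 170589849), had 7 cKO peaks with 6 found and 14 control peaks with 5 found (-34.3 points). Baz2b, which encodes a bromodomain protein (chromosome 2, 59899363 to 60209913), had 6 cKO peaks with 5 found and 13 control peaks with 5 found. Snx29, a sorting nexin gene (chromosome 16, 11322861 to 11759095), had 5 of 18 control peaks found, and Sil1, an endoplasmic reticulum chaperone factor gene (chromosome 18, 35266396 to 35499390), 3 of 13.

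At the other end were genes whose control peaks were nearly all matched. In Lhfp, Slc4a4, Arhgap15, Creb5 and Dgki the cKO list was longer than the control list. Lhfp, a tetraspan membrane protein gene (chromosome 3, 53041547 to 53261679), had 13 cKO peaks with 10 found and 10 control peaks, all found, where 5.0 were expected. Ebf1, a transcription factor of B cells and of mesenchymal cells (chromosome 11, 44618100 to 45008096), had 16 cKO peaks with 15 found and 18 control peaks with 16 found (34.7 points). Slc4a4, the sodium bicarbonate cotransporter gene of the proximal tubule (chromosome 5, 88793858 to 89239656), had 15 cKO peaks with 12 found and 13 control peaks with 12 found (29.7 points). Arhgap15, a Rac GTPase-activating protein gene of blood cells, had 15 cKO and 13 control peaks with 12 found in each.
The remaining genes of this end were Pde11a, a phosphodiesterase gene, with 15 of 16 control peaks found, Creb5 with 16 of 17, the mechanosensitive channel gene Piezo2 with 9 of 10 and the diacylglycerol kinase gene Dgki with 17 of 20. Their cKO peaks numbered 15, 18, 10 and 21, of which 12, 16, 10 and 17 were found. Pde11a turned to -8.80 points when an overlap of 50% of both peaks was required.

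**Figure D3:**
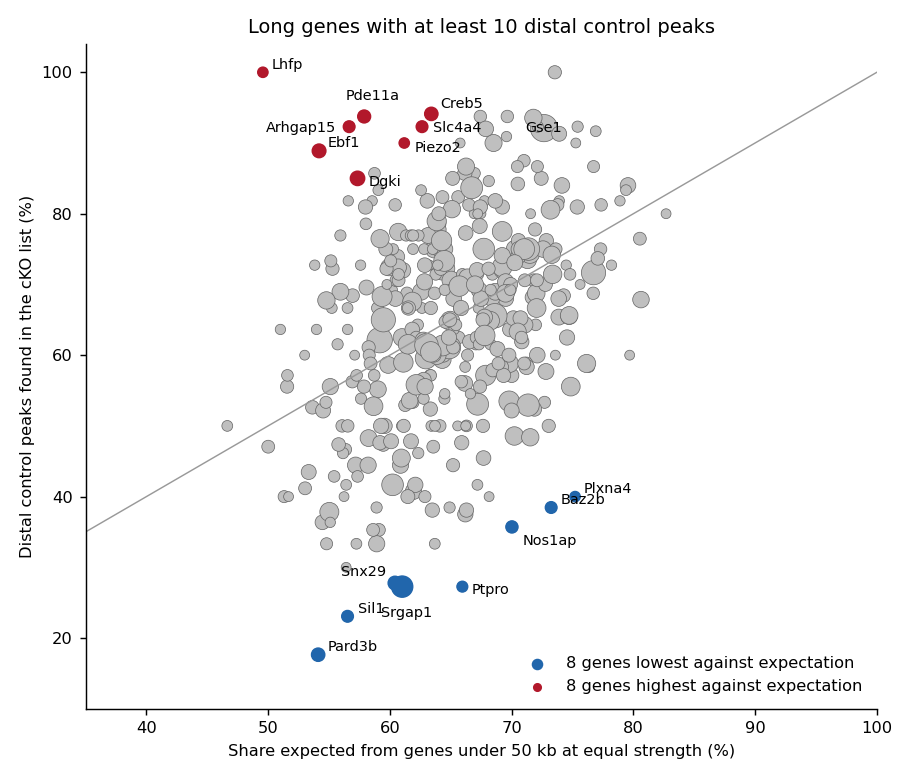
Share of distal control peaks found in the cKO list (%) against the share expected from genes under 50 kb at equal strength (%), for the 391 long genes with at least 10 distal control peaks. Point area follows the number of control peaks, the line marks equality, and the 8 lowest genes (Srgap1 with 44 peaks the largest of them) and 8 highest genes are coloured.

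Unmatched cKO peaks were few in any one gene. Lrmda, which is linked to melanocyte differentiation, and Macrod2, an ADP-ribosylhydrolase gene (chromosome 2, 140395303 to 142392966), had most, with 39 of 46 and 9 of 16 cKO peaks found in the control. Macrod2 had 12 control peaks with 9 found, so unmatched cKO peaks outnumbered unmatched control peaks there, 7 to 3. Hpse2, a heparanase family gene (chromosome 19, 42786541 to 43388476), had 12 cKO peaks with 6 found, where 11.1 were expected, and 7 control peaks with 6 found. The same number, 6, was unmatched among 39 cKO peaks of Nav2 and 46 of Rad51b.

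**Figure D4:**
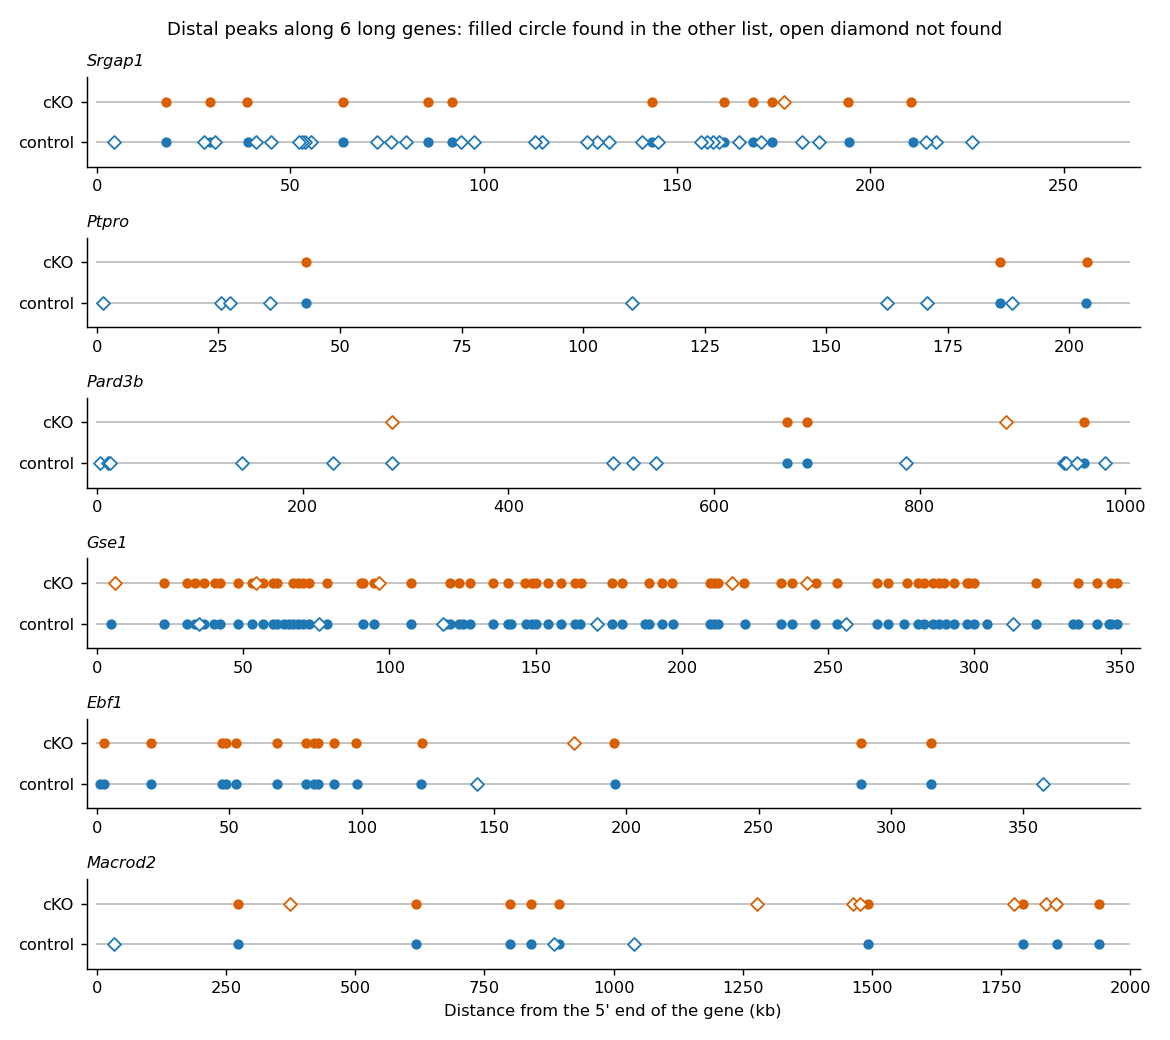
Distal peaks along 6 long genes, by distance from the 5′ end of the gene (kb), with cKO peaks on the upper line and control peaks on the lower line of each gene. Filled circles overlap a peak of the other list and open diamonds do not, as for 32 of 44 control peaks in Srgap1, 8 of 11 in Ptpro, 14 of 17 in Pard3b, 6 of 76 in Gse1 and 2 of 18 in Ebf1, and for 7 of 16 cKO peaks in Macrod2.

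The long genes were also read by function, in 11 lists whose members of at least 200000 bp are counted here. Of the 15 podocyte genes all had a control peak, and 151 of 165 cKO peaks were found (91.5%, 86.2 to 95.3%) against 148 of 285 control peaks (51.9%, 46.0 to 57.9%), where 61.3% was expected in the control list. The median podocyte gene had 50.0% of its control peaks found, against 66.7% over all long genes with a peak, and 11 of 15 lay below expectation. Arhgap24, a Rac GTPase-activating protein gene of podocytes, had 20 of 36 found, St6galnac3 21 of 35 and the tensin gene Tns3 22 of 32, while 21 of 23, 20 of 22 and 22 of 23 of their cKO peaks were found. Others, chosen after their values were seen, were the nebulette gene Nebl with 4 of 9, the phospholipase gene Plce1 with 3 of 9 and the nuclear factor gene Dach1 with 10 of 23 control peaks found. The 4 podocyte genes above expectation were Fat3 (25.2 points), Cdh13 (3.998), Magi2 (3.35) and Magi1 (0.45).

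Axon guidance genes lay below the short-gene expectation in both directions, as all long genes together did in the cKO list (-3.51 points). Of 17 genes, 16 had a control peak, and 120 of 141 cKO peaks (85.1%, 78.1 to 90.5%) and 119 of 221 control peaks (53.8%, 47.0 to 60.6%) were found. These differed from expectation by -8.97 points (-15.9 to -3.54) and -10.9 points (-17.7 to -4.14). With the control list shortened to the cKO length the cKO value was -5.44 points (-13.4 to 1.44), near the -5.98 points of all long genes in that setting. Without Srgap1 the control value was 107 of 177, or -5.16 points, for which no interval was computed. Robo1, which encodes a Slit receptor, had 10 of 14 cKO and 10 of 21 control peaks found. Slit3, which encodes a Slit ligand, differed, with 29 of 34 cKO and 30 of 38 control peaks found where 31.7 and 24.3 were expected.

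Chromatin remodelling genes, 7 in number, had 58 of 64 cKO peaks (90.6%) and 58 of 111 control peaks (52.3%, 42.6 to 61.8%) found, a difference of -11.8 points from expectation in the control list. Arid1b, which encodes a DNA-binding BAF subunit (chromosome 17, 4994297 to 5347656), accounted for much of this, with 20 of 21 cKO and 20 of 48 control peaks found. Without it the control difference was -6.74 points on 63 peaks, for which no interval was computed. Dpf3, another BAF subunit gene, had all 11 cKO peaks and 9 of 17 control peaks found, and Hdac4 all 8 and 8 of 16.

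Apart from transcription factors, the other lists lay above expectation in the control list and below it in the cKO list. Under 50% overlap the cKO values of the Wnt (3.14 points), tubule (2.69) and cytoskeletal (0.37) lists turned positive, and those of the neural (-2.36, -9.79 to 3.46) and matrix (-2.28, -9.11 to 3.32) lists shrank, with intervals that include 0. The control values of the cytoskeletal (-1.04) and neural (-3.75) lists turned negative with the control list shortened to the cKO length, as did the TGF-beta list (-0.61) at -log10 q of at least 2. Genes of the matrix and matrix receptor list had 139 of 194 control peaks found (71.6%, 8.24 points above, 1.34 to 14.5), and 140 of 161 cKO peaks (87.0%, -7.05 points). In this list Thsd4 had 24 of 39 control peaks found, the utrophin gene Utrn 18 of 29 and the integrin gene Itga9 20 of 26. The 6 Wnt and planar polarity genes had 53 of 75 control peaks found (9.93 points above, -1.71 to 19.9). Among them the glypican gene Gpc6 had 17 of 21, the Wnt receptor gene Ror1 11 of 16 and Prickle2 9 of 15. The 8 genes of the TGF-beta, BMP and FGF list had 41 of 58 control peaks found (3.27 points above, -10.2 to 14.5). Ltbp1, which anchors latent TGF-beta, had 12 of 14 and the BMP receptor gene Bmpr1b 10 of 13. The neuregulin receptor gene Erbb4, also placed in this list, had 4 of 8. Without Erbb4 the list stood 6.71 points above.
The largest list, 40 transcription factor genes, was the closest to expectation in the cKO list, with 539 of 569 cKO peaks (94.7%, 0.30 points above) and 538 of 810 control peaks (66.4%, 3.05 points above) found, though these turned to -6.75 points for cKO peaks with the control list shortened to the cKO length and to -0.33 points for control peaks with strength by peak area. Tead1, a Hippo pathway factor, had all 28 cKO peaks and 27 of 43 control peaks found.
Tubule transport genes had 165 of 234 control peaks found (70.5%), with 24 of 37 at the ankyrin gene Ank3, 14 of 24 at the potassium channel gene Kcnq1 and 18 of 23 at Kcnma1. Cytoskeletal genes had 344 of 527 (65.3%), including 29 of 36 at Tns1, and muscle, endothelial and immune genes 118 of 175 (67.4%), with 23 of 39 at Pde4d, 21 of 31 at Ptprg and 21 of 28 at Ptprm. Neural adhesion and synapse genes had 113 of 131 cKO peaks found (86.3%, -9.13 points) and 114 of 172 control peaks (66.3%, 0.48 points above), with 11 of 21 control peaks at Dab1, 11 of 19 at Ntm and 13 of 18 at Rbfox1.

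**Figure D5:**
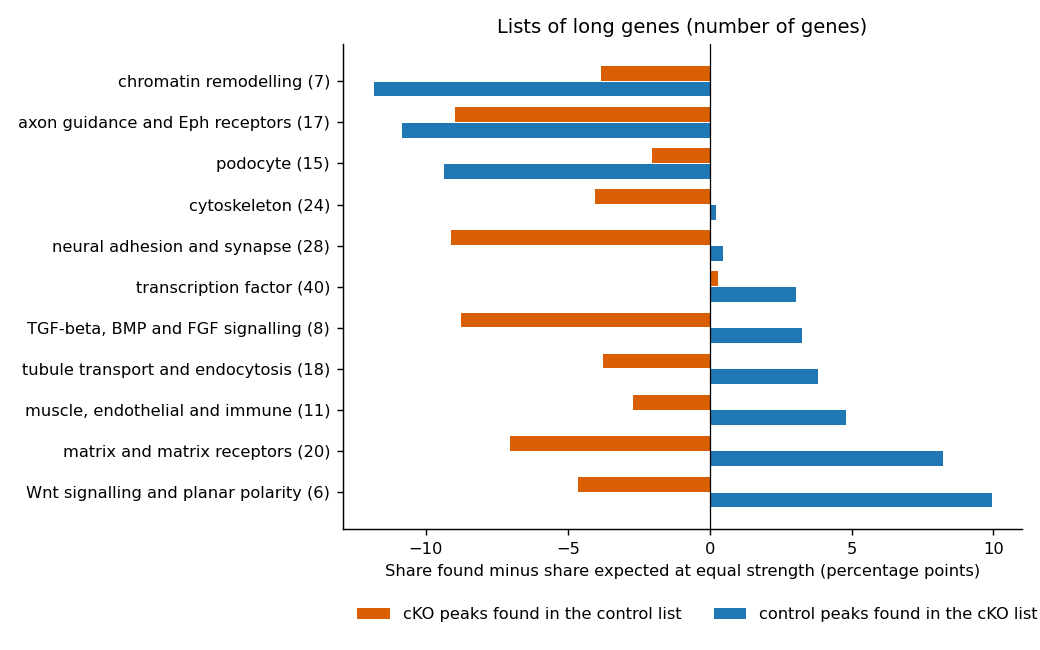
Share found minus the share expected at equal strength (percentage points) for 11 lists of long genes, with cKO peaks in the upper bar and control peaks in the lower bar of each list and the number of genes in brackets. Chromatin remodelling (-11.8), axon guidance (-10.9) and podocyte genes (-9.36) are the lists below 0 in the control list, and transcription factor genes (0.30, or -6.75 with the control list shortened to the cKO length) are the one above 0 in the cKO list.

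Each gene was also cut into 5 equal stretches. For the 744 long genes with a strand in the RefSeq table, the stretch nearest to the 3′ end held 23.8% of cKO and 23.1% of control gene-peak pairs, and the other stretches between 18.3% and 19.8%. Against expectation the cKO values from the 5′ to the 3′ end were -2.04, -3.29, -4.72, -5.07 and -3.03 points, and the control values 0.17, -1.53, 0.02, 0.25 and 1.16 points. Which peaks lie in exons or introns was not determined, since the gene table used gives no exons.

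Peaks at internal start sites were strong and mostly shared. Summits within 500 bp of an annotated start of the same gene numbered 202 in the cKO list and 217 in the control list. Of these, all 202 cKO peaks and 200 of 217 control peaks (92.2%, 87.8 to 95.4%) were found, where 98.97% and 90.3% were expected from their strength. Their median width was 1522.5 bp in the cKO and 1599 bp in the control list. The control peak at the Hdac4 window was 2602 bp wide and in class 10, and those at the Mical3 and Tacc2 windows were 1149 and 1430 bp wide and in class 5.

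Single regions were named by significance among unmatched peaks and by width. The most significant unmatched cKO peaks lay inside the microtubule-associated gene Mtus2 (chromosome 5, 147992558 to 147993322, -log10 p 6.12), Nav3 (chromosome 10, 109806713 to 109807545), the hemicentin gene Hmcn1 (chromosome 1, 150804636 to 150805269), Plcb4 (chromosome 2, 135686611 to 135687121) and Mctp2 (chromosome 7, 72150623 to 72151590), all in class 6 of the cKO list. The most significant unmatched control peaks were in class 8, inside the GABA-B receptor gene Gabbr2 (chromosome 4, 46825410 to 46826723, -log10 p 7.96), the semaphorin gene Sema5a (chromosome 15, 32533511 to 32534391), the Mediator gene Med13l (chromosome 5, 118619634 to 118620725), Srgap1 (chromosome 10, 121975075 to 121976093) and Pdzd2 (chromosome 15, 12717568 to 12719307).
The widest regions were matched. In the cKO list the widest lay in the zinc finger gene Zfp423 (5713 bp, chromosome 8, 87957733 to 87963445), Kif26b (5416 bp), Sfmbt2 (5302 bp), Atxn1 (5260 bp) and Pde10a (5234 bp). In the control list they lay in Zbtb7c (6301 bp, chromosome 18, 76083139 to 76089439), Gse1 (6020 bp), Zfp423 (5626 bp), Atxn1 (5131 bp) and Tenm4 (5081 bp). All 10 overlapped a peak of the other list.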

How the data were processed

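Each library was deposited as 1 peak list. Per the submitters' processing notes, Trim Galore, SAMtools and Genrich were used on mm10. The sources used here give no aligner, versions, settings, duplicate handling or read shifting. The deposited signal of a peak is its area as the authors' caller computed it. The authors' -log10 p and -log10 q rank peaks within a list only, and the lowest -log10 q was 1.35 in the cKO and 1.42 in the control list. Start, end and summit, other deposited columns per the labels' build mm10, are printed 1-based.

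Gene positions and types are those of RefSeq on GRCm38.p6, which is mm10. Peaks on other chromosomes and scaffolds (108 in each list) were left out. Control peaks on chromosome 18 were not searched for whole RefSeq windows, so none of them could be chosen for the printed sequences. Peaks inside long genes are those with the summit in a protein-coding gene of at least 200000 bp, whatever other gene holds it. Short-gene peaks lie in protein-coding genes under 50000 bp and in no longer one. Tied -log10 p values share a class. A peak inside 2 long genes (41 cKO and 53 control peaks) counts once in the set and once per gene. Python 3.11.15, pandas 2.3.3 and SciPy 1.17.1 were used, and the overlap and standardisation code was tested on simulated data.

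The members, gene lists and named genes were chosen with earlier results of these data known. The rule named the 12 long genes with most distal control peaks, the 8 lowest and 8 highest against expectation among those with at least 10, the 5 with most unmatched cKO peaks, 3 genes of each list by control peaks, and single peaks by significance and width. The 11 lists hold 294 names, and those under 200000 bp were not counted. Gene length classes, gene ends, places along the gene and internal start sites were added after seeing the data.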

Additional observations from a re-analysis of the deposited data

How the results depend on the processing

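No paired analysis was possible because each genotype has 1 library. The split of strength classes by area, the value without 5 genes of 800 kb and over (-7.37 points in the cKO list) and that for genes of 800 kb and over with a gene-end peak in both lists (-10.6 points) were chosen after seeing the data. Requiring 50% overlap of both peaks gave 84.2% of cKO and 60.3% of control regions found, a cKO difference of -1.09 points (interval including 0), and a control difference of 4.53 points in genes of 800 kb and over. With the control list cut to as many peaks as the cKO list, 76.4% and 76.1% were found. With -log10 q of at least 2, 61.8% of control regions were found. With long genes from 100 kb, 92.5% of cKO regions were found and the control difference was -1.90 points, and with long genes from 500 kb the shares were 88.1% and 67.0% and the control difference 2.61 points. With distal taken as more than 5 kb, the control differences were 2.83 points and, in genes of 800 kb and over, 5.25 points. Strength by peak area gave a control difference of -2.14 points. Splitting the strength classes by width gave a control value of 3.31 points in genes of 800 kb and over, and splitting them by area 3.30 points. Against genes of 50000 to under 200000 bp the control differences were 4.04 and 5.87 points. Against distal peaks outside protein-coding genes the cKO difference was 2.14 points and the control difference -4.06 points. The cause of these changes was not tested. The cKO deficit in genes of 800 kb and over kept its sign and its side of 0 under all 16 alternatives, from -12.6 to -3.33 points. The cKO difference of all long genes stayed below 0 with an interval excluding 0 under 15 of 17. With peaks of 1 gene kept together its interval was -4.45 to -2.57. Of 220 alternative values for the lists 13 changed sign. These included the cKO transcription factor value, -6.75 points at equal list length, and the control neural value, -3.75 points. Of 160 for the 16 ranked genes 1 did, Pde11a. The chromatin, axon guidance and podocyte lists stayed below expectation in the control list under all 10 alternatives (at most -8.12, -8.09 and -5.79 points). These alternatives did not leave out single genes of a list. Without Arid1b, Srgap1 and Arhgap24, their genes with most unmatched control peaks, the values were -6.74, -5.16 and -7.92 points. They rest on 63, 177 and 249 control peaks and no intervals were computed, so whether they differ from 0 beyond counting error was not tested. Depth is unknown, so unmatched weak peaks cannot be told from uncalled ones.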

Other observations

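Some of the longest genes had no region of this kind at all. Of the 990 long genes 103 had no distal peak in either list, with a median length of 310 kb against 325 kb over all long genes, and 32 of the 103 also lacked a gene-end peak in both lists. The longest was the LDL receptor family gene Lrp1b (chromosome 2, 40595290 to 42653598), which had a gene-end peak in both lists and no distal peak over 2058 kb. Il1rapl1 on chromosome X (1375 kb), the neuregulin gene Nrg3 (1108 kb) and the adhesion gene Cadm2 (966 kb) were alike in this. Auts2 (1106 kb) and Cntnap5a (903 kb) had a gene-end peak in the control list alone. Several of the 103 genes lay on chromosome X, among them Il1rapl1, Col4a5, Col4a6 and Cask. That chromosome held only 50 of the 7443 cKO and 61 of the 10393 control regions, and the reason was not tested.

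Among genes with peaks the density varied widely. Gse1 had 18.99 distal cKO and 21.5 distal control peaks per 100 kb, and Macrod2, of 1998 kb, had 0.801 and 0.601. These genes were named after their values were seen.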
